A study of Mus musculus with 8 samples.

Results

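The cadherin superfamily members described here are 42 mouse genes whose symbols consist of Cdh, Pcdh, Dsg or Dsc and a number, with Cdh1, Cdh2 and the clustered protocadherins left out. They were found by matching the transcript accession of each probe to RefSeq, and all 42 had a probe, 79 probes in all, among 45616 genes and unnamed transcripts on the array. RNA came from TEC71, a line of mouse medullary thymic epithelial cells. Clone 1, on 3 arrays, and clone 3, on 2 arrays, are knock-in clones with the Gtf2i mutation that the labels call T1211A. The control cells, on 3 arrays, had been transfected with Cas9n, a nickase form of Cas9, and 1 guide RNA. Each knock-in group is a single clone, and the labels do not say whether arrays of a group came from separate cultures, so p-values measure only the spread between these arrays, which may be technical.

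Cadherins are calcium-dependent adhesion proteins that span the membrane and bind cadherins on the neighbouring cell. Classical cadherins attach through catenins to actin at adherens junctions, and desmogleins and desmocollins attach through plakoglobin, plakophilins and desmoplakin to keratin filaments at desmosomes. Nonclustered protocadherins have short or divergent tails that do not bind the classical catenins, and are best known from the developing brain. In epithelium, including the keratin-rich epithelium of the thymic medulla, these junctions hold cells in a sheet. Gtf2i encodes the transcription factor TFII-I.

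Values are levels, that is log2 of the processed signal over the 75th percentile of the same array, from the brightest probe of each gene. Levels of different genes come from different probes and are not set against each other. Testing required that the scanner software placed the probe well above background throughout at least 1 of the 3 groups, which 21 of the 42 members met. The brightest probes of 16 members were above background on all 8 arrays. Of the 21 members not tested, 18 had no probe above background on any array. Cdh15 (muscle), Cdh9 (neural) and Cdh23 (the hair bundle of the inner ear) were above background on 1 array each, which for Cdh15 was a control array and for Cdh9 and Cdh23 a clone 1 array.

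**Figure D1:**
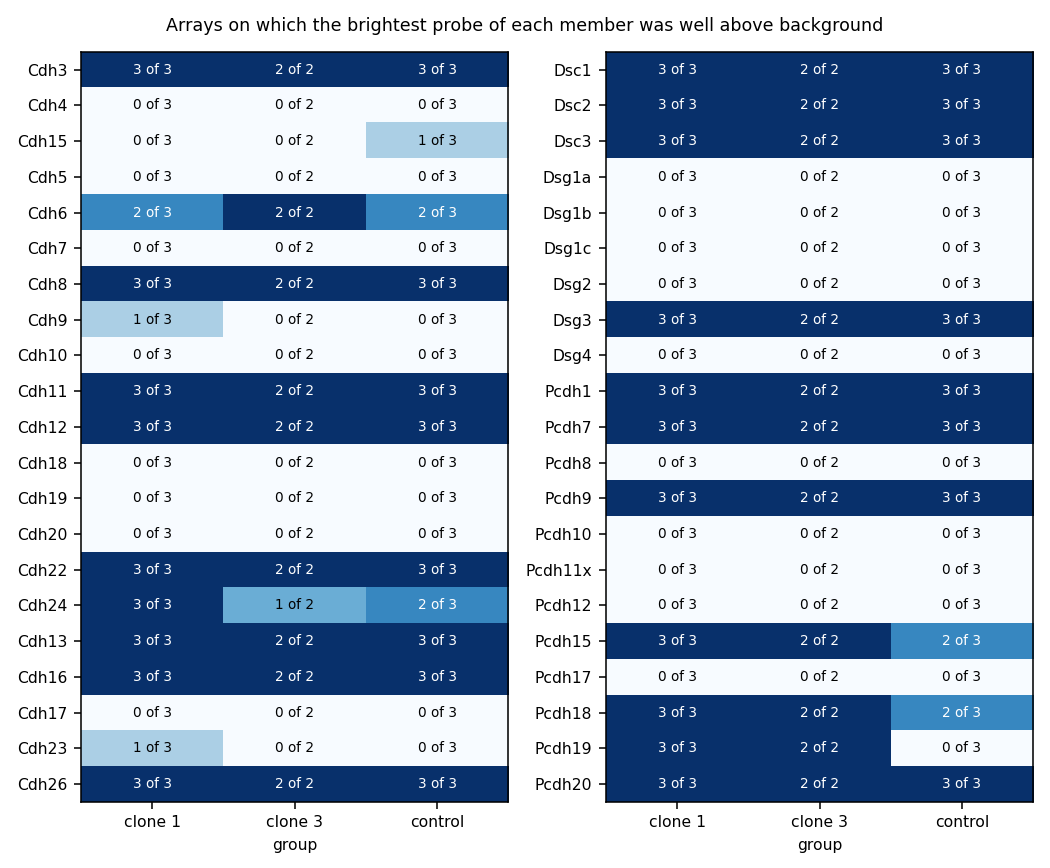
Number of arrays, out of those hybridized, on which the brightest probe of each of the 42 members was well above background, for clone 1, clone 3 and the control (columns) and each gene (rows); darker squares mean a larger share. Pcdh19 is above background on 3 of 3 clone 1 arrays, 2 of 2 clone 3 arrays and 0 of 3 control arrays.

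The 18 undetected members include genes that mark other tissues. Among them were Cdh5, the cadherin of endothelium, Cdh4 of the retina, Cdh17 of the gut, and the neural genes Cdh7, Cdh10, Cdh18, Cdh19 and Cdh20. The undetected desmosomal genes were Dsg1a, Dsg1b and Dsg1c, desmogleins of the upper epidermis, Dsg4 of the hair follicle, and Dsg2, the desmoglein found in most epithelia. Dsg2 was at background with each of its 2 probes on all 8 arrays. Pcdh8, Pcdh10, Pcdh11x, Pcdh12 and Pcdh17 were the undetected protocadherins. A signal at background does not show that a transcript is absent.

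Against the control, 9 tested members passed limma's test in both clones with the same sign. Cdh3, Dsg3, Dsc3, Dsc2, Cdh26 and Pcdh7 were lower, and Cdh13, Pcdh18 and Pcdh19 were higher. Pcdh18 and Pcdh19 entered the test through the knock-in arrays, since the control was not above background throughout. These were 6 of 21 lower (28.6%) where 12.2% of all 25353 tested genes and transcripts were lower in both clones, and 3 of 21 higher (14.3%) where 11.3% of all were higher in both. In clone 1 taken by itself the members' counts were also 3 higher and 6 lower, against 14.7% and 16.5% of all tested, and in clone 3 by itself 3 higher and 6 lower, against 13.3% and 17% of all tested. In either direction that is 9 of 21 in each clone, against 31.1% of all tested in clone 1 and 30.2% in clone 3, and 9 of 21 in both, against 23.5%. With a change of at least 2-fold, 2 members were higher and 3 lower in each clone, where 4.38% and 4.39% of all tested were in clone 1 and 4.28% and 6.05% in clone 3. All 5 knock-in arrays lay above the control arrays for 4 members, against 17.4% of all tested, and below them for 6, against 20.9%. Both comparisons use the same 3 control arrays. The median log2 fold change of the 21 members was 0.03 in clone 1 and 0.05 in clone 3, beside -0.05 and -0.04 over everything tested. The list as a whole was not tested. In bulk RNA, fewer cells that express a gene and less RNA per cell cannot be told apart.

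**Figure D2:**
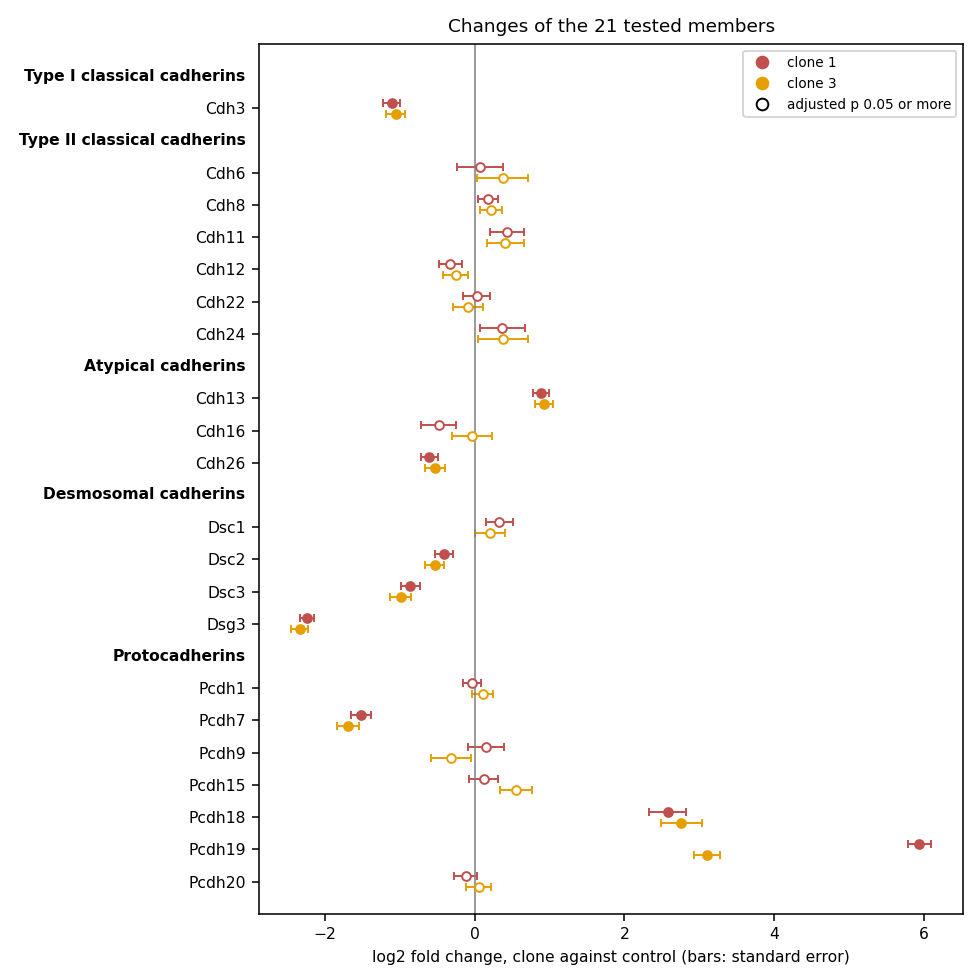
Log2 fold change of each clone over the control (horizontal axis, with standard error) for the 21 tested members grouped by class; filled points passed at an adjusted p under 0.05. Dsg3 has the lowest values, at -2.24 in clone 1 and -2.33 in clone 3, while the points of Pcdh19, at 5.94 and 3.11, are set against a control at background and give no size of change.

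Cdh3, P-cadherin of the basal layer of stratified epithelia, was the only type I classical cadherin among the members that could be tested. Its level was 0.79, 0.64 and 0.49 on the clone 1 arrays and 0.72 and 0.67 on the clone 3 arrays, against 1.80, 1.63 and 1.81 on the control arrays. Every knock-in array lay below every control array, by more than the spread within any group. Cdh3 fell 2.15-fold in clone 1 (-1.11 log2, SE 0.12, adjusted p = 1.92e-04) and 2.07-fold in clone 3 (-1.05 log2, SE 0.13, adjusted p = 5.72e-04). With the row of the slide as a block, the clone 3 call ended (-0.82 log2, adjusted p = 0.0532). The control arrays and the first clone 1 array were in slide row 1 and the other arrays in row 2, so row and group overlap. The effect of the row can only be read from the first clone 1 array against the other clone 1 arrays. Every value given here with the row as a block, for any gene, thus rests on that 1 array. Its brightest control spot was 4448, where the other arrays had 18812 to 34228, and what this does to these values was not tested.

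Of 9 desmosomal cadherins 4 were tested, of which Dsg3, Dsc3 and Dsc2 were lower in both clones and Dsc1 passed in neither. Dsg3, the desmoglein of basal keratinocytes and the autoantigen of human pemphigus vulgaris, had the largest fall of them. It stood at -2.26, -2.34 and -2.41 in clone 1 and -2.36 and -2.51 in clone 3, against -0.10, -0.13 and -0.08 in the control. The groups were far apart, and the 3 control arrays differed by less than 0.1. Dsg3 fell 4.71-fold in clone 1 (-2.24 log2, SE 0.10, adjusted p = 1.30e-06) and 5.04-fold in clone 3 (-2.33 log2, SE 0.11, adjusted p = 2.56e-06). With the slide row as a block it was still lower, by 2.16 and 2.22 log2, with adjusted p = 1.01e-04 and 6.40e-04. Normexp background correction here starts from the median spot and background signals instead of the processed signal. It also adds an offset of 50 to each signal and so compresses dim values. It gave -1.49 and -1.53 log2 for Dsg3 (adjusted p = 8.69e-08 and 2.60e-07). Among 10 tested epithelial markers, Krt5 (-1.32 and -1.13 log2), Trp63 (-0.65 and -0.99 log2), Epcam and Cd80 fell in both clones, Cldn4 rose, and Krt14 (-0.32 and -0.14 log2), Krt8, Krt18, Cldn3 and Foxn1 passed in neither. The part of these markers in the desmosomal and Cdh3 results was not tested.

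Dsc3, the desmocollin that accompanies Dsg3 in basal cells, had levels of 0.33, 0.16 and 0.02 in clone 1 and 0.04 and 0.04 in clone 3, against 0.89, 0.96 and 1.22 in the control. The knock-in arrays again lay below all control arrays. The fall was 1.81-fold in clone 1 (-0.86 log2, SE 0.13, adjusted p = 0.00137) and 1.98-fold in clone 3 (-0.99 log2, SE 0.14, adjusted p = 0.00137). The brightest Dsc3 probe matches transcript NM_001291809, and the other 2 probes match NM_007882. Of these, A_55_P1999483 was above background on all 3 control arrays, at -3.40, -3.33 and -3.45, and on no knock-in array, where it read -5.78, -6.83 and -6.36 in clone 1 and -7.10 and -6.37 in clone 3. Read as a bound, with dim values set to no less than the lowest signal above background on their array, the fall was at least 2.92-fold for clone 1 and, for clone 3, at least 2.79-fold (adjusted p = 8.02e-05 and 9.12e-05 in a fit of all probes, for the measured values rather than the bound). That probe entered the fit through the control arrays alone, where it is high, so it is given as a description. The third probe, A_66_P138055, was above background on 1 control array alone. The mean of all 3 probes gave -2.01 and -1.97 log2, but it takes in knock-in readings at background and so gives no size of the fall. With the row as a block the brightest Dsc3 probe missed the threshold in clone 3 (-0.75 log2, adjusted p = 0.0990), and in slide row 1 alone, which sets 1 clone 1 array against the 3 control arrays, in clone 1 (-0.70 log2, adjusted p = 0.0859).

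Dsc2, the desmocollin of nearly all desmosome-bearing tissues, read -1.32, -1.38 and -1.17 in clone 1 and -1.52 and -1.31 in clone 3, against -1.0004, -0.78 and -0.87 in the control. No knock-in array reached the control range, but the gap was small. The fall of Dsc2 was 1.33-fold in clone 1 (-0.41 log2, SE 0.12, adjusted p = 0.0293) and 1.45-fold in clone 3 (-0.53 log2, SE 0.13, adjusted p = 0.0164). The call in clone 1 ended without clone 1 replicate 1 (adjusted p = 0.0761), clone 1 replicate 2 (0.0950), control replicate 2 (0.0930) or control replicate 3 (0.0775), and the call in clone 3 ended without clone 3 replicate 1 (0.102). Neither call held with the slide row as a block, although the falls were slightly larger there (-0.44 and -0.58 log2, adjusted p = 0.139 and 0.188), with median scaling (-0.37 and -0.45 log2, 0.101 and 0.0787) or, at unchanged size, without the filter on detection (0.104 and 0.0658). Dsc1, a desmocollin of differentiated epidermis, passed in neither, at 0.33 log2 for clone 1 (SE 0.18, adjusted p = 0.218) and 0.21 log2 for clone 3 (SE 0.20, adjusted p = 0.498). The other Dsc1 probes were above background on no array. The genes of desmogleins and desmocollins all lie on chromosome 18, so the 3 that fell share a chromosome with the 5 that stayed at background and with Dsc1.

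**Figure D3:**
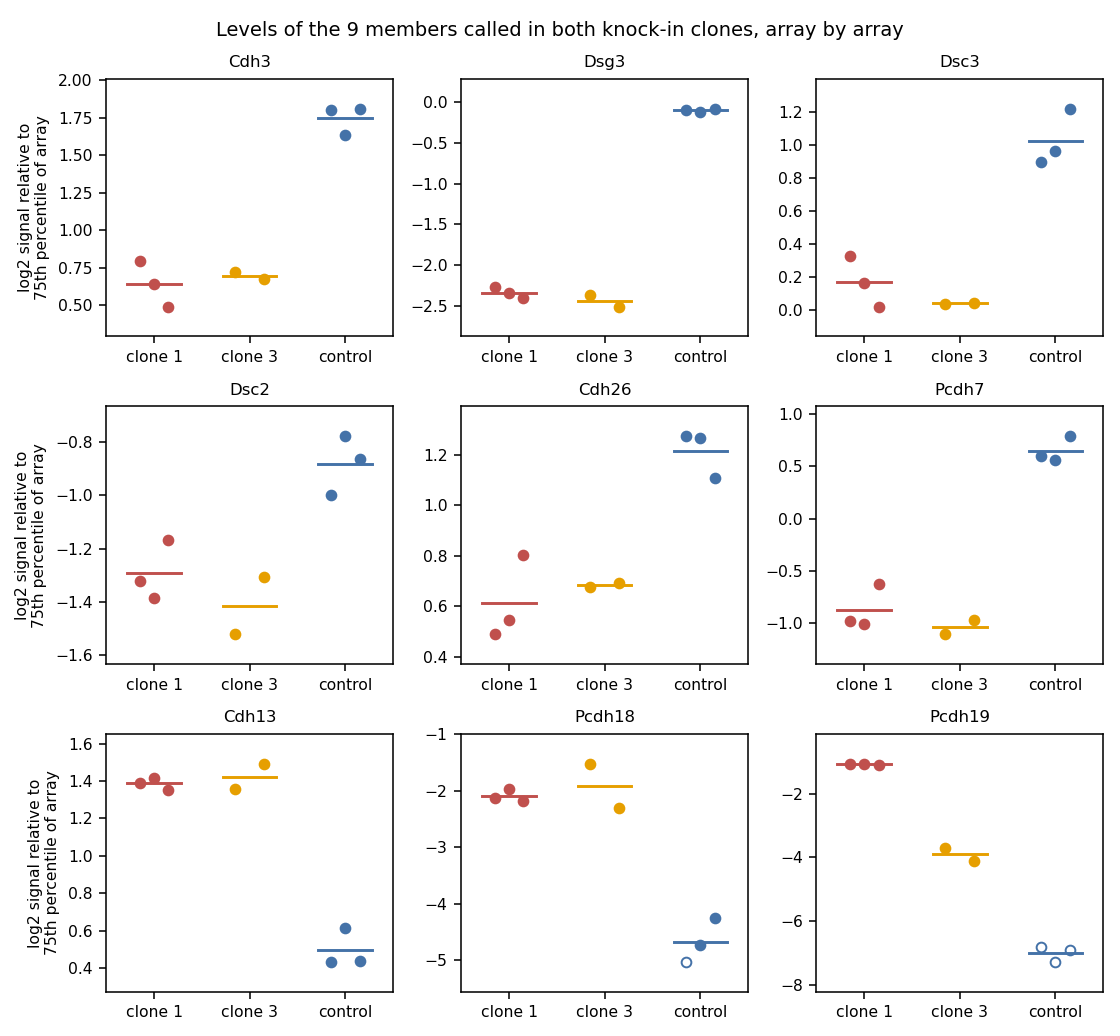
Level of the 9 members that passed in both clones, on each array of clone 1, clone 3 and the control (points; line: group mean; open point: not well above background on that array); the vertical axis is log2 of the signal over the array's 75th percentile and differs between panels. For Cdh3, Dsg3, Dsc3, Dsc2, Cdh26 and Pcdh7 all 5 knock-in arrays lie under the control arrays, and for Cdh13, Pcdh18 and Pcdh19 above them.

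Among 5 atypical cadherins, Cdh13 rose, Cdh26 fell and Cdh16 was not called, while Cdh17 and Cdh23 could not be tested. Cdh13 encodes T-cadherin, which is held in the membrane by a lipid anchor, lacks the tail that binds catenins and binds adiponectin. Its levels were 1.39, 1.42 and 1.35 in clone 1 and 1.35 and 1.49 in clone 3, against 0.43, 0.62 and 0.44 in the control. The lowest knock-in array was more than 0.7 above the highest control array. Cdh13 rose 1.85-fold in clone 1 (0.89 log2, SE 0.10, adjusted p = 3.46e-04) and 1.90-fold in clone 3 (0.93 log2, SE 0.12, adjusted p = 6.09e-04). Its other probe gave 0.79 log2 (SE 0.17, adjusted p = 0.00874) and 0.64 log2 (SE 0.19, adjusted p = 0.0362) in the fit of all probes. With the slide row as a block Cdh13 kept both calls (adjusted p = 0.00865 and 0.0368).

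Cdh26, an atypical cadherin of epithelia, read 0.49, 0.55 and 0.80 in clone 1 and 0.68 and 0.69 in clone 3, against 1.27, 1.27 and 1.11 in the control. The third clone 1 array came nearest to the control arrays without reaching them. Its fall was 1.52-fold in clone 1 (-0.60 log2, SE 0.12, adjusted p = 0.00514) and 1.45-fold in clone 3 (-0.53 log2, SE 0.13, adjusted p = 0.0166). The clone 3 call ended without clone 3 replicate 1 (adjusted p = 0.0707), clone 3 replicate 2 (0.0724) or control replicate 1 (0.0507), with median scaling (-0.45 log2, 0.0761), without the detection filter at an unchanged -0.53 log2 (0.0664), and with the row as a block at a larger -0.72 log2 (0.0959). The clone 1 call ended in slide row 1 alone, with 1 clone 1 array, at a larger -0.73 log2 (0.0539). Both calls ended when Cdh26 was averaged with its other probe, which was above background nowhere (-0.18 and -0.20 log2, 0.319 and 0.317). Cdh16, the cadherin of kidney tubules, lay at -0.48 log2 in clone 1 (SE 0.24, adjusted p = 0.167) and -0.03 log2 in clone 3 (SE 0.26, adjusted p = 0.942). The other Cdh16 probe was above background on no array.

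None of the 6 tested type II classical cadherins, of 13 members, passed in either clone. Cdh11, the cadherin best known from mesenchyme and bone, had levels of 2.52, 2.58 and 2.67 in clone 1 and 2.61 and 2.53 in clone 3, against 2.35, 2.54 and 1.58 in the control. The third control array stood apart, and the knock-in arrays overlapped the second. The difference was 0.43 log2 in clone 1 (SE 0.22, adjusted p = 0.186) and 0.41 log2 in clone 3 (SE 0.25, adjusted p = 0.258). Leaving out control replicate 3 gave 0.15 log2 for clone 1 and 0.12 for clone 3. The other Cdh11 probe had the opposite sign, at -0.39 log2 in clone 1 (adjusted p = 0.155) and -0.59 log2 in clone 3 (adjusted p = 0.0620), so the direction of Cdh11 depends on the probe.

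Cdh8, Cdh12, Cdh22, Cdh24 and Cdh6, which are best known from brain or kidney, completed the tested type II genes. For Cdh8, Cdh22, Cdh24 and Cdh6 every probe but the brightest was above background on no array, so detection of each rests on 1 probe. For Cdh8 the differences were 0.17 log2 (SE 0.13) and 0.22 log2 (SE 0.15), and for Cdh12 -0.32 log2 (SE 0.15) and -0.25 log2 (SE 0.17). Cdh22 lay at 0.03 and -0.08 log2. Cdh6 was above background on 2 of 3 clone 1 arrays, 2 of 2 clone 3 arrays and 2 of 3 control arrays, and differed by 0.07 and 0.37 log2. Cdh24 was above background on 3 of 3 clone 1 arrays, 1 of 2 clone 3 arrays and 2 of 3 control arrays, and stood 0.37 log2 (clone 1) and 0.38 log2 (clone 3) from the control. The clone 3 value of Cdh24 rested on 1 array: it was 1.03 log2 (adjusted p = 0.0191) without clone 3 replicate 2 and -0.27 log2 without clone 3 replicate 1. Over all 12 tested members that passed in neither clone, differences ran from -0.48 to 0.43 log2 in clone 1 and from -0.31 to 0.55 log2 in clone 3, and the lowest adjusted p was 0.145 and 0.0894.

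**Figure D4:**
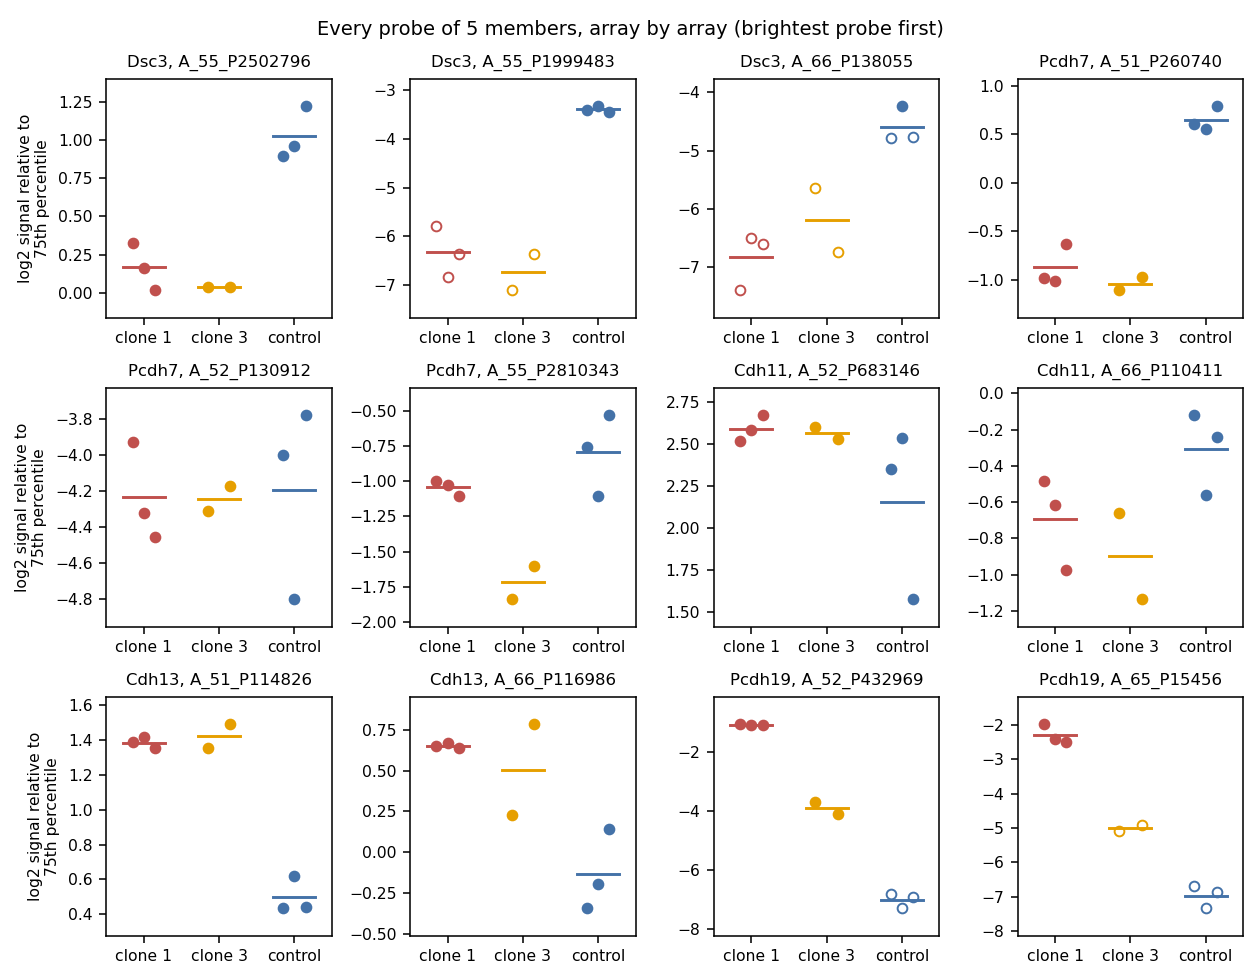
Level on each array for every probe of Dsc3, Pcdh7, Cdh11, Cdh13 and Pcdh19 (points; line: group mean; open point: not well above background), with clone 1, clone 3 and the control along each horizontal axis and log2 of the signal over the array's 75th percentile on the vertical axis, which differs between panels. Both probes of Cdh13 are higher in the clones, and the 2 Cdh11 probes differ in direction. For Pcdh19, 1 probe is above background in clone 1 alone. For Dsc3, 1 probe is above background on all 3 control arrays alone and 1 on 1 control array alone. Of the 3 Pcdh7 probes, 1 shows no fall and is dim on every array.

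Among the protocadherins were 2 rises and 1 fall, with Pcdh18 and Pcdh19 higher, Pcdh7 lower and 4 of the 7 tested not called in either clone. RefSeq windows from 250 bases before to 50 after the start (build GRCm38.p6) were at hand for 4 of the 9 members called in both clones, and are shown because Pcdh18 and Pcdh19, at or near background in the control, rose while Pcdh7 and Cdh26 fell. They are Pcdh18 at chr3:49757267-49757566 (minus strand), Pcdh19 at chrX:133688944-133689243 (minus strand), Pcdh7 at chr5:57717831-57718130 (plus strand) and Cdh26 at chr2:178430265-178430564 (plus strand). Capitals mark CCAAT, the CCAAT box, and GGATTA, a motif of the TFII-I relative GTF2IRD1, on either strand.
Pcdh18: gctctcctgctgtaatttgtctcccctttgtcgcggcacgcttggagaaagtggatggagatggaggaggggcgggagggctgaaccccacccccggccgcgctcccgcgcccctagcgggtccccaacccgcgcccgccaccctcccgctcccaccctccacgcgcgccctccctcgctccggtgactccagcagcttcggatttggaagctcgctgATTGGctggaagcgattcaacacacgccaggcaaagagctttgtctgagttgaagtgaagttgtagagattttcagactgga
Pcdh19: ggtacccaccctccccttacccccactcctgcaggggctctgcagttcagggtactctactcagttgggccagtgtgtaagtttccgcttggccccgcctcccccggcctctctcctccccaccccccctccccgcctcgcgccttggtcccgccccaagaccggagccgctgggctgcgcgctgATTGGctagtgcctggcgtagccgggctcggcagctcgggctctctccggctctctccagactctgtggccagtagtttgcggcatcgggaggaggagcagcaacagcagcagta
Pcdh7: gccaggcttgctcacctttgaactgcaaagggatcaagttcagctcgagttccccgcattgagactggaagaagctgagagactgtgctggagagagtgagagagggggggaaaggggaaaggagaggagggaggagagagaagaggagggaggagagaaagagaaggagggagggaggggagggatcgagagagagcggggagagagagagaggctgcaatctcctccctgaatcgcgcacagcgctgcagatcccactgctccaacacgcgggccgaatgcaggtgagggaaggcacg
Cdh26: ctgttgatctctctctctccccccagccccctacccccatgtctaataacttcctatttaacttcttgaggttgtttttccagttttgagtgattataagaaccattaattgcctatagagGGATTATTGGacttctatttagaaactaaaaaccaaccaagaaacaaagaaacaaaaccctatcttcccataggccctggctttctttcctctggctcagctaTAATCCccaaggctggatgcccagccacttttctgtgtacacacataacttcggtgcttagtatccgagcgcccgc

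The windows of Pcdh18 and Pcdh19 hold CCAAT once each on the reverse strand, at positions -32 and -65 from the start, and it sits inside the longest run of letters that they share, 12 bases, cgctgATTGGct. CCAAT occurs in 37.4% of all 32851 windows of the same length and the 12-base run in 0.180% of them (59 windows), both counted on both strands. The run was picked from these same windows as their longest match, and how long a run other pairs of windows share was not counted. Its share of all windows is therefore no measure of how unusual the match is. The Cdh26 window holds CCAAT once and GGATTA 2 times, and 1 base is common to neighbouring matches, while 7.06% of all windows hold GGATTA. The Pcdh7 window has neither. The GC box GGGCGG was found once in each of the Pcdh18 and Pcdh19 windows (35.7% of all windows), and CACGTG and TATAAA in none of the 4 (7.15% and 13.6% of all windows). CpG pairs numbered 23 in the Pcdh18 window, 18 in that of Pcdh19, 11 in that of Pcdh7 and 4 in that of Cdh26, where the median window has 7. Among all windows these counts stand at percentiles 78.5, 70.3, 58.6 and 31.4, in the same order. A match of letters is a description and was not tied to binding here.

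Pcdh19, an X-linked protocadherin whose human counterpart is mutated in an epilepsy, was well above background on no control array. Its levels were -1.05, -1.07 and -1.08 in clone 1 and -3.70 and -4.10 in clone 3, against -6.81, -7.29 and -6.92 in the control. The 3 groups did not overlap, but the control readings lay at background, so their spread is not a spread of expression. Because the control was at background, the rise is a bound, at least 15.04-fold for clone 1 arrays and, for clone 3 arrays, at least 2.11-fold. The measured group means were -1.07, -3.90 and -7.01, and the adjusted p of 1.05e-07 and 6.41e-06 belongs to those measured values, not to the bounds. Pcdh19 entered the test through the knock-in arrays alone, where it is high, so these values are given as a description. The lowest signal called above background ran from -5.45 to -4.56 between arrays, so such bounds are approximate. With normexp correction the values were 1.82 and 0.49 log2 for Pcdh19 (adjusted p = 5.77e-08 and 0.0139).

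Pcdh19 also differed between the clones, the only member to do so. Clone 3 averaged -3.90 ± 0.29 (SD, n = 2), against -1.07 ± 0.02 for clone 1 (SD, n = 3). That is 7.11-fold lower in clone 3 (-2.83 log2, adjusted p = 0.00134, limma), where 0.0316% of all tested were lower, at any size and at 2-fold or more alike. Higher in clone 3 were 0 members, against 0.0434% of all tested, or 0.0394% at 2-fold or more, and 0.0749% of all tested differed either way. The second Pcdh19 probe read -5.09 and -4.91 in clone 3, below background, and -1.98, -2.42 and -2.50 in clone 1, which is at least 5.91-fold higher in clone 1. In slide row 2 alone, with 2 arrays of each clone, the difference was -2.82 log2 and missed the threshold (adjusted p = 0.0809), and with normexp correction it was -1.32 log2 (adjusted p = 8.39e-04). The other 20 tested members differed between clone 3 and clone 1 by -0.47 to 0.45 log2, and 0 of them had an unadjusted p under 0.05.

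Pcdh18, a protocadherin of the delta group like Pcdh19, read -2.13, -1.96 and -2.19 in clone 1 and -1.52 and -2.30 in clone 3, against -5.03, -4.72 and -4.26 in the control. The first control array was not above background, and the groups were well separated. Pcdh18 rose 5.96-fold in clone 1 (2.58 log2, SE 0.24, adjusted p = 1.02e-04) and 6.78-fold in clone 3 (2.76 log2, SE 0.27, adjusted p = 1.61e-04), as fitted values. Pcdh18 entered the test through the knock-in arrays alone, where it is high, so these values are given as a description. With the slide row as a block the Pcdh18 rise was 2.54 and 2.70 log2 (adjusted p = 0.00384 and 0.0166). The size of the Pcdh18 rise depended on the signal used and its background correction, since normexp gave 0.92 and 0.98 log2 (adjusted p = 1.23e-04 and 2.32e-04).

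Pcdh7, a delta-group protocadherin, read -0.98, -1.01 and -0.63 in clone 1 and -1.10 and -0.97 in clone 3, against 0.60, 0.56 and 0.79 in the control. Its knock-in and control arrays were more than 1 log2 apart. The fall was 2.87-fold in clone 1 (-1.52 log2, SE 0.14, adjusted p = 7.40e-05) and 3.22-fold in clone 3 (-1.69 log2, SE 0.15, adjusted p = 9.94e-05). This probe matches NM_018764. The 2 Pcdh7 probes for NM_001122758, both above background on all 8 arrays, disagreed with it in part. A_55_P2810343 gave -0.25 log2 in clone 1 (SE 0.15, adjusted p = 0.265) and -0.92 log2 in clone 3 (SE 0.17, adjusted p = 0.00421), and A_52_P130912 gave -0.04 and -0.05 log2 (adjusted p = 0.922 and 0.916). A_52_P130912 read only -4.80 to -3.78 over the arrays, near the lowest signals called above background (-5.45 to -4.56), so it could show little of a fall. A fall of Pcdh7 in both clones was thus seen with 1 of its 3 probes, and the mean of the 3 gave -0.60 and -0.89 log2 (adjusted p = 0.0204 and 0.00645).

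The 4 protocadherins without a call were Pcdh1, Pcdh9, Pcdh15 and Pcdh20. Pcdh1, an adhesion protein of airway epithelium, read 1.47, 1.42 and 1.56 in clone 1 and 1.63 and 1.62 in clone 3, against 1.35, 1.47 and 1.73 in the control. Its groups overlapped, with differences of -0.03 log2 (SE 0.12) and 0.11 log2 (SE 0.14). Pcdh15, which forms the tip link of hair cells with Cdh23, stood at 0.12 log2 for clone 1 (SE 0.19) and 0.55 log2 for clone 3 (SE 0.22, adjusted p = 0.0894). The Pcdh15 difference in clone 3 passed with quantile scaling (0.63 log2, adjusted p = 0.0428) and with median scaling (0.63 log2, adjusted p = 0.0432). Pcdh9 lay at 0.15 and -0.31 log2 and Pcdh20 at -0.12 and 0.05 log2. The other Pcdh9 probes were above background on no array. Of the other Pcdh15 probes 1 was above background, on 4 arrays. That probe had the opposite sign, at -0.10 log2 in clone 1 and -0.74 log2 in clone 3 (adjusted p = 0.887 and 0.292 in the fit of all probes). The mean of all Pcdh15 probes gave -0.05 log2 in clone 3 (adjusted p = 0.863), so the direction of Pcdh15 depends on the probe.

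The proteins that anchor and process cadherins were read from a list of 38 genes, of which 32 were tested. In both clones 5 of them rose and 5 fell, and 22 did not pass in both, where 11.3% and 12.2% of all tested did. Afdn, the afadin gene that links nectins to actin, had the largest rise, 1.18 log2 in clone 1 (SE 0.13, adjusted p = 2.66e-04) and 1.02 log2 in clone 3 (SE 0.15, adjusted p = 0.00127). Plekha7, which ties the adherens junction to microtubules, fell by 1.00 log2 (SE 0.13, adjusted p = 6.10e-04) and 1.12 log2 (SE 0.14, adjusted p = 7.28e-04). Ctnnbip1, an inhibitor of beta-catenin, fell by 0.64 log2 (adjusted p = 0.00123) and 0.55 log2 (adjusted p = 0.00518). These 3 kept both calls with each array left out in turn, and Afdn and Plekha7 also with the slide row as a block, while Ctnnbip1 lost its clone 3 call there at a larger fall (-0.64 log2, adjusted p = 0.0782).

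The other 7 partner genes called in both clones lost a call when some array was left out. The plakin gene Evpl rose by 0.51 and 0.46 log2 (highest adjusted p with an array left out 0.0658 and 0.222), and the catenin gene Ctnnd1, which steadies classical cadherins at the membrane, by 0.66 and 0.58 log2 (0.0428 and 0.209). Vinculin (Vcl) rose by 0.65 and 0.48 log2 (0.0126 and 0.114) and zyxin (Zyx) by 0.46 and 0.48 log2 (0.0504 and 0.129), both of which act on actin at adhesions. Pof1b, an actin-binding epithelial protein gene, fell by 2.10 and 1.26 log2 (0.00343 and 0.0879), Kazn of the desmosome by 0.74 and 0.60 log2 (0.0147 and 0.0901), and the actin-binding gene Ablim1 by 0.96 and 0.93 log2 (0.0602 and 0.170). The clone 3 call was lost without clone 3 replicate 1 for Vcl, Kazn, Ctnnd1, Evpl and Ablim1, and without clone 3 replicate 2 for Pof1b, Zyx, Evpl and Ablim1. It was also lost without control replicate 1 (Ctnnd1, Evpl, Ablim1), control replicate 2 (Ctnnd1, Vcl, Zyx, Ablim1), control replicate 3 (Ctnnd1, Vcl, Evpl, Ablim1), clone 1 replicate 1 or 3 (Evpl) and clone 1 replicate 2 (Evpl, Ctnnd1). The clone 1 call was lost for Evpl and Ablim1 without control replicate 1 or 3, for Evpl without clone 1 replicate 1 or 3, and for Zyx without control replicate 2 or clone 1 replicate 2. Pof1b was above background on 2 of 3 clone 1 arrays, and normexp correction gave -0.62 and -0.43 log2 for it. With the mean of all probes Kazn lost both calls (-0.13 and -0.02 log2, adjusted p = 0.601 and 0.949). Without the detection filter, at unchanged sizes, Evpl, Ablim1 and Zyx lost the clone 1 call and Ctnnd1, Evpl, Kazn, Vcl, Ablim1 and Zyx the clone 3 call. With the slide row as a block none of these 7 kept both calls, and Ablim1 shrank to -0.58 and -0.36 log2 (adjusted p = 0.270 and 0.659).

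Other partner genes on the list did not pass in both clones. Desmoplakin (Dsp), which ties desmosomes to keratins, lay at 0.01 log2 (SE 0.12) and -0.21 log2 (SE 0.13). Beta-catenin (Ctnnb1) lay at 0.10 and 0.10 log2 and alpha-catenin (Ctnna1) at -0.08 and 0.33 log2. Plakoglobin (Jup), shared by both kinds of junction, rose in clone 3 (0.45 log2, SE 0.12, adjusted p = 0.0218) and lay at 0.18 log2 in clone 1 (SE 0.11, adjusted p = 0.234). The plakophilin genes Pkp1, Pkp2 and Pkp3 lay between -0.13 and 0.21 log2 in the clones.

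**Figure D5:**
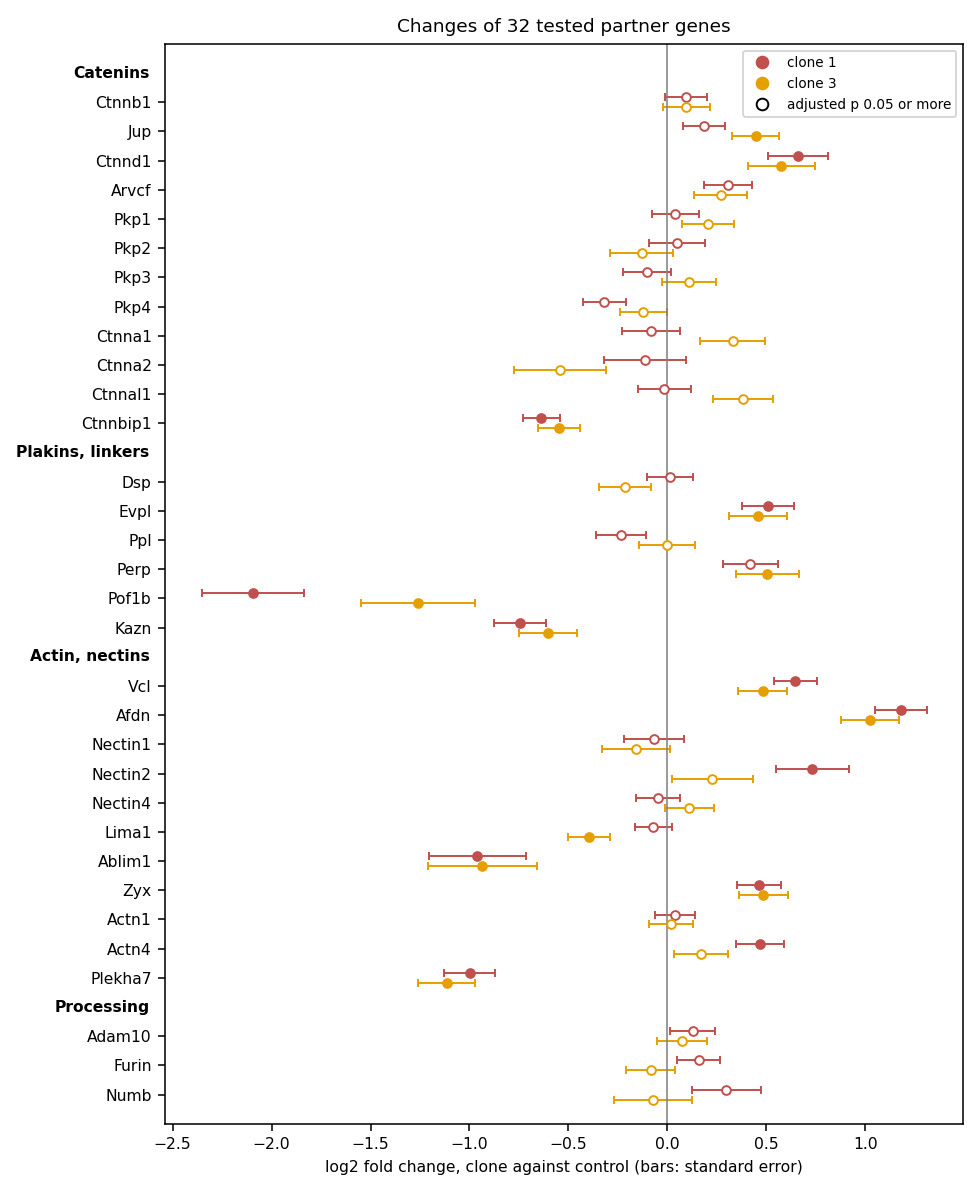
Log2 fold change of each clone over the control (horizontal axis, with standard error) for the 32 tested partner genes, grouped as catenins, plakins and linkers, actin and nectin side, and processing; filled points passed at an adjusted p under 0.05. Afdn has the highest values, at 1.18 in clone 1 and 1.02 in clone 3, and Pof1b the lowest, at -2.10 and -1.26.

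Across the 8 arrays, 55.3% to 59.3% of probes were well above background and no spot was saturated. All arrays come from 1 slide and 1 scan. The first clone 1 array had a brightest control spot of 4448, where the others had 18812 to 34228. The keratin genes Krt5, Krt14, Krt8 and Krt18 and Epcam, which mark epithelium, were above background on all arrays. Aire, Fezf2 and Ccl21a, which mark medullary epithelium, and Psmb11 were not above background on every array of any group. Of 14 epithelial markers 10 were tested, as given beside Dsg3. Epcam fell by 1.10 and 1.01 log2, and the summed signal of the 14 epithelial markers, in units of the 75th percentile, was 346 to 396 in clone 1 and 364 to 407 in clone 3, against 391 to 508 in the control. Of 9 fibroblast markers 2 were tested, of which Pdgfra fell (-1.30 and -1.83 log2) and Col1a2 was not called (-0.13 and 0.14 log2). Of 7 endothelial markers 1 was tested and not called. The summed fibroblast signal, which mainly follows Pdgfra, was 0.475 to 0.631 in clone 1 and 0.490 to 0.564 in clone 3, against 0.969 to 1.22 in the control. Of 3 tested pigment cell and neural crest markers, Mitf rose by 1.10 and 0.88 log2. Sox10 (0.08 and 0.23 log2) and Pmel (0.26 and 0.06 log2) were not called. The summed signal of this list, which mainly follows Mitf, was 0.950 to 1.14 in clone 1 and 0.780 to 1.13 in clone 3, against 0.563 to 0.609 in the control. Lymphocyte and myeloid markers had 0 calls of 4 tested in either clone. The part of these markers in the cadherin results was not tested.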

How the data were processed

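RNA of TEC71 cells was hybridized to 8 single-colour Agilent arrays, 3 of knock-in clone 1, 2 of knock-in clone 3 and 3 of the control, grouped by genotype and description labels. The deposited values are processed signals, a fluorescence intensity corrected for background within the array by the authors' scanner software (Feature Extraction 11.5.11 in the submitters' processing notes); the flags used for detection and outliers are in the same deposited files. The file headers name build mm9, so no coordinates of probes are given.

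Control spots and outlier spots were left out, log2 signals were averaged over the spots of a probe then set relative to each array's own 75th percentile, and 32994 of 56605 probes were named through their accession and RefSeq (GRCm38.p6). The brightest probe stood for a gene, and 25353 genes and transcripts were tested. limma 3.58.1 in R 4.3.3 (lmFit and eBayes; two-sided p-values adjusted by Benjamini-Hochberg across everything tested, threshold 0.05) fitted the 3 groups together, since clone 3 has 2 arrays, with 5 residual and 3.38 prior degrees of freedom. No member lacked a value on any array. The fit was tested on simulated data.

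The members, gene lists and rules were chosen with earlier results of these data known. Every member is accounted for. Members that passed in both clones, or in 1 clone by at least 2-fold, or between the clones are given array by array, beside a few others for contrast, and partner genes by up to 4 called in both clones each way per list. The promoter motifs were chosen after the data were seen, as were the fits of each probe by itself and of slide row 2. Alternatives covered background correction, scaling, filters, probes, variance model, array weights, slide row, thresholds and each array left out. No precision beyond the number of arrays can be given.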

Additional observations from a re-analysis of the deposited data

Results flagged for a closer look

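Pcdh19 was the only cadherin family member or partner gene whose change differed between the clones by the test of the difference itself. It was lower in clone 3 than in clone 1 by 2.83 log2 (-2.83 log2, adjusted p = 0.00134), with levels of -3.70 and -4.10 in clone 3 and -1.05, -1.07 and -1.08 in clone 1. With each array left out in turn it stayed between -3.03 and -2.63 log2, with adjusted p from 0.00367 to 0.0148. Why the clones differ was not tested.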

How the results depend on the processing

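No paired analysis was possible because the labels give no replicate numbers shared between groups. Across 21 alternative settings and the other probes, the 9 members called in both clones kept their direction in all 376 values, 19 of them for Pcdh19 between the clones. Of the 376, 337 stayed on the same side of the threshold while 39 no longer passed. Many of these values could not change direction. Other thresholds, no filter and the other variance model reuse the same fold changes, as does leaving out an array of the clone not compared. Of 6 members lower in both clones, 2 remained called with the slide row as a block (Dsg3 and Pcdh7), 2 in clone 3 as well, and 5 of the 9 members kept both calls there. With the row as a block the clone 1 changes are the same as in slide row 1 alone, so these settings are not separate checks. Lower in clone 1 were 3 within slide row 1, which holds 1 clone 1 array, assumed to vary like the control arrays. At least 2-fold, 3 were lower in clone 1, 3 in clone 3 and 3 in both. Requiring signal on all 8 arrays left 1 higher in clone 1, 1 in clone 3 and 1 in both, and 0 between the clones, since Pcdh18 and Pcdh19 are not above background on all control arrays. Slide row 2 alone gave 0 between the clones. Normexp correction, with its other input signal and added offset, shrank the fitted changes of Dsg3, Pcdh18 and Pcdh19 by over 1.5 times while their calls stayed. With an array left out, 4 to 6 were lower in both.

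Partner genes called in both clones, 5 higher and 5 lower, numbered 1 and 3 without a filter, 1 and 1 with the row as a block, 1 and 2 at an adjusted p under 0.01, and 1 and 1 at 2-fold. With an array left out they ranged from 2 to 4 higher and from 3 to 5 lower.

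Signs turned only for members without a call. Normexp correction gave 0.0161 log2 for Cdh16 and -0.0221 for Pcdh20 in clone 3, and in clone 1 -0.0156 for Cdh22, -0.0104 for Cdh6, 0.0394 for Pcdh1, -0.0145 for Pcdh15 and -0.0104 for Pcdh9. The mean of all probes gave -0.0896 for Cdh11, 0.0592 for Cdh16, -0.0567 for Cdh6, -0.225 for Dsc1, -0.0473 for Pcdh15 and 0.0122 for Pcdh9 in clone 3, and -0.225 for Cdh6, -0.150 for Dsc1, 0.314 for Pcdh1 and -0.00766 for Pcdh9 in clone 1. Median scaling gave 0.0494 for Cdh16 in clone 3 and 0.00470 for Pcdh1 in clone 1, and quantile scaling 0.00147 for Cdh22 in clone 3. Slide row 1 alone and the row as a block each gave -0.0394 for Cdh22 and 0.0348 for Pcdh20 in clone 1. Other probes gave -0.39 and -0.59 for Cdh11 and -0.10 and -0.74 for Pcdh15. With an array left out, clone 1 ranged from -0.106 to 0.127 for Cdh22, -0.124 to 0.416 for Cdh6, -0.114 to 0.0769 for Pcdh1, -0.0701 to 0.274 for Pcdh15, -0.199 to 0.0246 for Pcdh20 and -0.0758 to 0.341 for Pcdh9, and clone 3 from -0.408 to 0.342 for Cdh16, -0.377 to 0.208 for Cdh22, -0.273 to 1.03 for Cdh24, -0.0257 to 0.138 for Pcdh20 and -0.642 to 0.0177 for Pcdh9. The cause was not tested.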
